A study of Rattus norvegicus with 24 samples.

Results

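Matrix metalloproteinases, the related ADAM and ADAMTS proteinases and their inhibitors were examined in lung and blood of rats that had inhaled crystalline silica. Members were the probes whose gene symbol begins with Mmp, Timp, Adam or Adamts, together with the probe of Reck, and 59 of the 21792 probes on the array met this rule, with 1 probe per gene. A further 2 matrix metalloproteinases are not analysed here. The rule used symbols only and no measured value.

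The rats were male CDF Fisher 344 rats, with an age of 3 months in the labels, which do not state when that age was taken. The silica rats (6) inhaled crystalline silica at 15 mg/m3, and the air rats (6) breathed filtered air. Exposure to silica or air lasted 6 hours per day on 5 days and killed 32 weeks after the last exposure. Lung and blood of every rat were hybridised to Illumina rat BeadChips, 1 array per rat and tissue (24 arrays), and blood RNA had been depleted of globin transcripts.

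Matrix metalloproteinases are zinc enzymes that are made as inactive precursors and cleave collagens, elastin, laminins and other matrix proteins, and in the lung they take part in injury repair, emphysema and fibrosis. ADAMs sit in the cell membrane and release the outer parts of cytokines, receptors and adhesion proteins, whereas ADAMTS enzymes are secreted and cut proteoglycans or procollagens. The tissue inhibitors (Timps) and the membrane-anchored glycoprotein Reck block many of these enzymes, so the balance of enzyme and inhibitor is commonly followed in lung disease.

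RefSeq promoters (build GRCr8) were found for 45 of the 59 members. Those of 4 members called in lung are shown, namely the inhibitors Reck and Timp2, which fell, and the proteinases Mmp7 and Adam17, which rose. They were chosen by these directions. Of the other called members, Mmp14, which rose, and Adam33 and Adamtsl4, which fell, are not shown. Each sequence gives the 250 bases before the RefSeq start, 5′ to 3′ on the strand of the gene. They lie at chr5:62898467-62898716 (plus strand, Reck), chr10:104089215-104089464 (minus strand, Timp2), chr8:13132793-13133042 (plus strand, Mmp7) and chr6:46649345-46649594 (minus strand, Adam17). Capitals mark matches, on either strand, to AP-1 (TGANTCA), the Sp1 box (GGGCGG), an ETS motif (AGGAAG) or the TATA box (TATAAA).
Reck: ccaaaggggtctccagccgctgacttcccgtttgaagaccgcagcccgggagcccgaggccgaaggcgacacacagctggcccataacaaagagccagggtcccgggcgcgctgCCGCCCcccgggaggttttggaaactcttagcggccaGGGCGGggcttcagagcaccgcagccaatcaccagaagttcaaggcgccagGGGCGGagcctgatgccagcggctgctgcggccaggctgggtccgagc
Timp2: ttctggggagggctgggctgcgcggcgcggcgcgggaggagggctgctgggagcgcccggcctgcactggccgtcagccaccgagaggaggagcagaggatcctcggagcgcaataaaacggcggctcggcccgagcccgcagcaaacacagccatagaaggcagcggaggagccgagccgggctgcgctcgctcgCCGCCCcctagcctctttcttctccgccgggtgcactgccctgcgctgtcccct
Mmp7: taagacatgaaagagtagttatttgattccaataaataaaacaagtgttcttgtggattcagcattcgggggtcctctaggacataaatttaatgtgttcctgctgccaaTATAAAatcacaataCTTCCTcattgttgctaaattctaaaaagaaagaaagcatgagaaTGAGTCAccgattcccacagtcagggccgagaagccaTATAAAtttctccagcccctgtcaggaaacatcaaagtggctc
Adam17: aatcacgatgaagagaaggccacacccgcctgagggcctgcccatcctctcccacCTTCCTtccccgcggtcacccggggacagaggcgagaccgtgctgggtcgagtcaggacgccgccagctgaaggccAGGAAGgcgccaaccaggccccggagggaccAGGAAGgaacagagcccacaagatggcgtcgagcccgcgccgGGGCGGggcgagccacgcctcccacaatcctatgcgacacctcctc
The Reck window holds 3 Sp1 boxes, whose letters begin 136, 99 and 48 bases before the start, and the Timp2 window holds 1 Sp1 box at 54 bases. The Mmp7 window holds 1 AP-1 match at 80 bases before the start, 1 ETS match at 125 bases and TATAAA at 140 and 43 bases. The Adam17 window holds 1 Sp1 box at 46 bases and 3 ETS matches at 195, 119 and 88 bases. Of 33469 rat promoters of this length, 6.34% hold the AP-1 letters, 30.5% the Sp1 box, 29.5% the ETS letters and 12.9% TATAAA, and of the 45 member promoters 6, 20, 20 and 10 do. None of the 4 motifs overlapped another in the windows shown. A match describes letters in the window and is no evidence of binding.

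Most alveolar, mesothelial and fibroblast markers followed the tissue labels. All 10 tested markers of alveolar type 1 cells and all 10 of type 2 cells were detected on all 12 lung arrays, whereas 7 of 10 type 2 markers, Sftpc, Sftpb and Sftpa1 among them, and all 5 mesothelial markers were detected on no blood array. In lung 11013 to 11733 probes were detected per array and in blood 7498 to 8469, where detection means a detection p-value under 0.05. In blood, 6 of 11 fibroblast markers were detected on no array. The T and NK cell markers did not set the tissues apart, with 15 of 16 detected on all 12 arrays in blood and in lung alike. Some alveolar markers, Emp2 and Hopx of type 1 and Lpcat1 and Napsa of type 2 cells, were detected on all 12 blood arrays. The blood arrays of air rats 2 and 6 and of silica rat 6 stood apart from the other blood arrays on the first principal component. Results in blood are therefore also given without them where they differ.

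Of the 59 members, 28 were tested in lung and 11 in blood, a tested probe being one detected on 6 or more of a tissue's 12 arrays. All 11 members tested in blood were also tested in lung. In lung 21 members were detected on all 12 arrays and 21 on none, and in blood 5 were detected on all 12 and 35 on none. All 4 inhibitors (Timp1, Timp2, Timp3 and Reck) were tested in both tissues. Of the 7 ADAMs with a catalytic motif that are made outside the testis, 5 were tested in lung, against 1 of 8 ADAMs of testis or sperm. Both members of the procollagen-processing ADAMTS group and both ADAMs that lack the catalytic motif were too dim to test in either tissue.

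**Figure D1:**
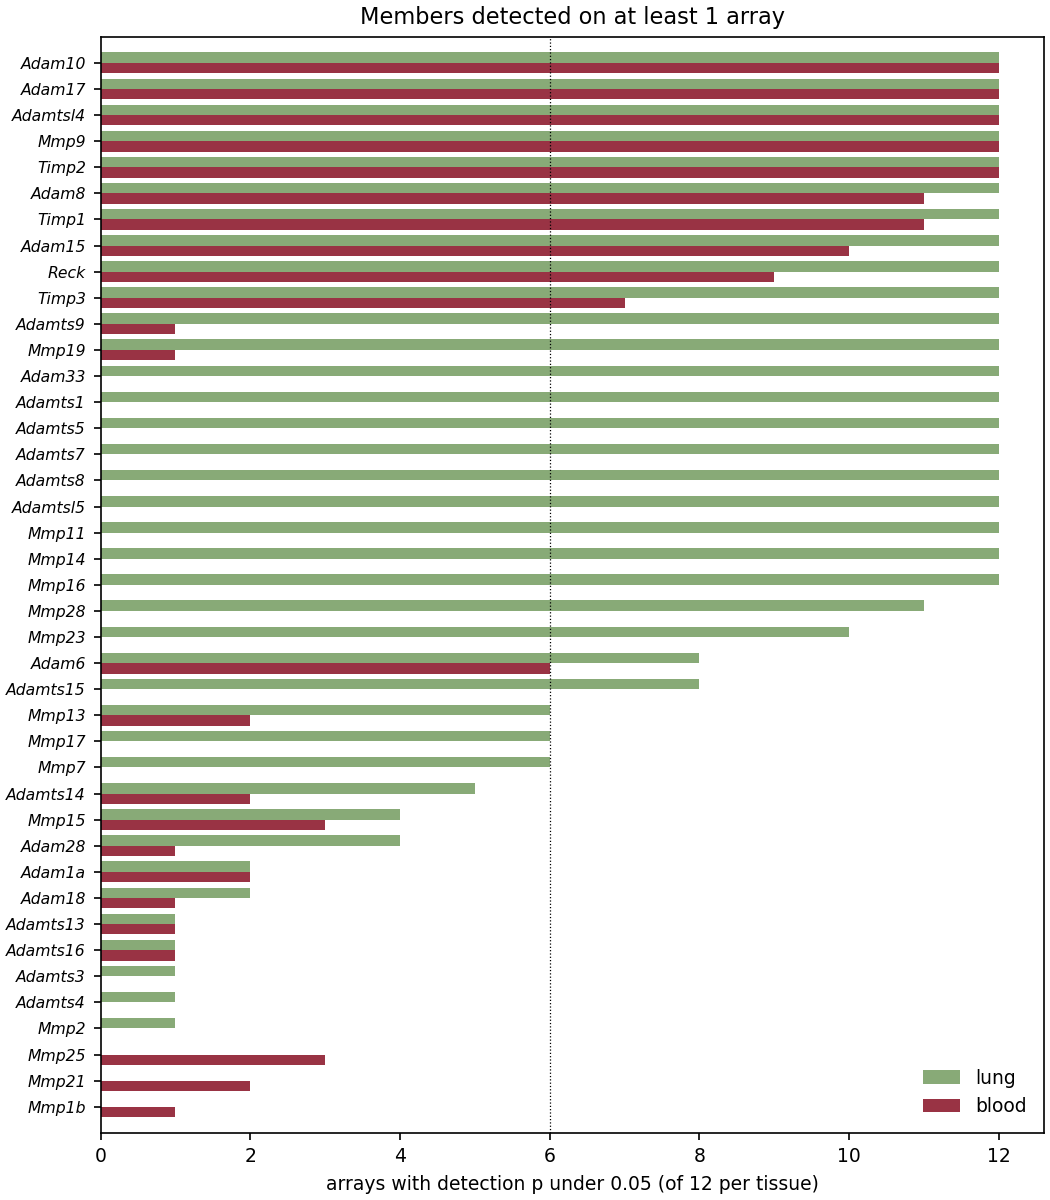
Number of arrays, of 12 per tissue, on which each member was detected (detection p under 0.05), for the members detected on at least 1 array; green bars are lung and red bars blood, and the dotted line at 6 marks the minimum for testing. Adam10, Adam17, Adamtsl4, Mmp9 and Timp2 were detected on all arrays of both tissues, and Mmp7 on 6 lung arrays and no blood array.

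In lung, 32 weeks after silica, 7 of the 28 tested members changed. Mmp7, Mmp14 and Adam17 rose, and Reck, Timp2, Adam33 and Adamtsl4 fell (limma, Benjamini-Hochberg adjusted p under 0.05 over all 11285 tested probes). This is 25% of the members tested, where 16.1% of all tested probes were called, 7.59% as higher and 8.53% as lower. At an unadjusted p under 0.05 stood 11 of the 28 members and 28.8% of all tested probes. The median log2 difference of the 28 members was -0.0089, against -0.0057 over all tested probes, and the median absolute difference was 0.027 against 0.044. Mmp7 passed the detection filter through its silica arrays alone, so it had to differ and its call is no support for the share. Lung is a mixture of cell types, so fewer cells of a type and less RNA per cell cannot be told apart.

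Among the inhibitors, Reck fell furthest. Reck is a membrane-anchored protein that inhibits MMP2, MMP9, MMP14 and ADAM10. Its normalised log2 signal in air rats ranged from 10.46 to 10.63 with a median of 10.57, and in silica rats from 9.84 to 10.17 with a median of 10.03. Every silica rat lay below every air rat. Groups without overlap, in either direction, were seen for 3 of the 28 members and for 8.11% of all tested probes. Mmp7 is among the 3 and had to differ, since it passed the detection filter through its silica arrays alone. The mean fell from 10.56 ± 0.06 to 10.01 ± 0.13 (SD, n = 6), a change of -0.55 ± 0.05 on the log2 scale (SE), or 1.46-fold lower (limma adjusted p = 0.00018). The 95% interval ran from -0.67 to -0.43. The deposited bead numbers of this probe are not whole, as for 683 probes in all, Adam10 and Adamtsl4 among them.

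Timp2, the inhibitor that binds MMP14 on the cell surface and so takes part in activation of pro-MMP2, also fell. Its log2 signal ranged from 9.46 to 9.82 (median 9.62) in air rats and from 9.06 to 9.58 (median 9.35) in silica rats. The groups overlapped, since the highest silica rat (9.58) lay above the lowest air rat (9.46). The change was -0.28 ± 0.08 (SE), 1.22-fold lower (limma adjusted p = 0.040), and it missed the threshold in 9 of 12 fits that left out 1 array (limma adjusted p 0.054 to 0.080), those without air rat 1, 2, 3, 4 or 6 or silica rat 1, 2, 3 or 5.

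The other inhibitors did not pass the test. Timp1, which inhibits most secreted metalloproteinases, ranged from 9.74 to 10.30 in air rats and from 10.02 to 10.42 in silica rats. Its difference was 0.14 ± 0.10 (SE), with a 95% interval from -0.08 to 0.36 (limma adjusted p = 0.42). Timp3, which is bound to the matrix and inhibits ADAM17 as well as metalloproteinases, differed by -0.13 ± 0.05 (SE; limma adjusted p = 0.12), and its silica rat 1 (7.52) lay above the other 5 (7.33 to 7.38).

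Among the metalloproteinases, Mmp7 was detected on no lung array of air rats and on all 6 of silica rats. Mmp7 (matrilysin) is a small secreted enzyme made mainly by epithelial cells, it cleaves E-cadherin and syndecan-1, and in human lung it is a known marker of pulmonary fibrosis. The raw bead signals in air rats 1 to 6 were 60.2, 69.7, 55.1, 56.7, 54.5 and 66.3. In silica rats 1 to 6 they were 116.2, 142.8, 124.6, 173.7, 143.8 and 101.7. Every silica rat was therefore above every air rat, and the air values lay within or near the range of 49.2 to 64.4 seen in blood, where the probe was detected on no array. After normalization the mean log2 signal rose from 6.46 ± 0.02 to 6.81 ± 0.14 (SD, n = 6). The difference was 0.36 ± 0.06 (SE), or at least 1.27-fold higher because air rats give only a bound (limma adjusted p = 0.0020). That p-value is no support, since the probe passed the detection filter through its silica arrays alone.

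The size of the Mmp7 change depended on the background correction, although the call did not. With either background the call is no support, because the detection filter let Mmp7 through by its silica arrays alone. The background model inferred from the deposited detection p-values had an SD of 83.1 to 136.4 on lung arrays and 87.5 to 160.3 on blood arrays. The scaled median absolute deviation of the undetected probes, a measure little moved by a few bright probes, lay between 4.81 and 5.44 on lung arrays and between 5.05 and 6.05 on blood arrays. Undetected probes with signals above 200 numbered 34 to 43 per lung array and 10 to 22 per blood array, and their part in the inferred SD was not tested. With the background taken from the undetected probes, an alternative chosen after seeing the data, Mmp7 differed by 2.07 on the log2 scale, at least 3.89-fold higher (limma adjusted p = 7.8e-07). The same 7 members were called with that background. In the authors' deposited table, whose lung values depart from log2 at low signal, the group means of Mmp7 were 6.88 in air and 7.42 in silica rats. Their gap cannot be compared in size with the log2 differences above.

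Mmp14, the membrane-type collagenase that activates pro-MMP2 and is held in check by Timp2 and Reck, rose in lung. Its log2 signal ranged from 10.07 to 10.49 (median 10.12) in air rats and from 10.39 to 10.71 (median 10.49) in silica rats. The groups overlapped through air rat 6 (10.49), and the other 5 air rats lay below all silica rats. The change was 0.34 ± 0.08 (SE), 1.27-fold higher (limma adjusted p = 0.013). In air and silica rats alike, the probe was detected on no blood array.

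The other 8 tested metalloproteinases were not called. Mmp9 (gelatinase B, released by neutrophils and macrophages) had a lung log2 signal of 6.68 to 6.83 in air rats and 6.72 to 6.94 in silica rats, a difference of 0.07 ± 0.03 (SE; limma adjusted p = 0.23). Mmp16, a membrane-type enzyme, differed by -0.14 ± 0.05 (SE; limma adjusted p = 0.11). Mmp13, the main interstitial collagenase of rodents, was detected on 6 of 12 lung arrays and differed by 0.01, with a 95% interval from -0.04 to 0.05. That narrow interval holds for the main background alone, since with the background from undetected probes Mmp13 differed by 0.11 ± 0.14 (SE). Mmp11 (stromelysin-3), Mmp17 (a membrane-type enzyme), Mmp19, Mmp23 and Mmp28 (epilysin) differed by 0.02 or less on the log2 scale. With the background from undetected probes the differences of these 8 ran from -0.24 (Mmp16) to 0.22 (Mmp9), and none was called.

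Several metalloproteinases of matrix repair were too dim to be tested. The Mmp2 probe, for the gelatinase that MMP14 activates, was detected on 1 lung array, with raw signals of 50.1 to 68.3 over the 12 lungs, and is named outside the naming rule after its values were seen. The stromelysins Mmp3 and Mmp10 and the collagenases Mmp1 and Mmp1b were detected on no lung array.

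Among the ADAMs, Adam17 rose in lung. ADAM17 releases TNF and its receptors, L-selectin and ligands of the EGF receptor from the cell surface. Its log2 signal ranged from 10.61 to 10.89 (median 10.65) in air rats and from 10.77 to 10.98 (median 10.90) in silica rats. The groups overlapped, since air rat 6 (10.89) and, narrowly, air rat 2 lay above the lowest silica rat (10.77). The change was 0.20 ± 0.05 (SE), 1.15-fold higher (limma adjusted p = 0.021).

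Adam33, a proteinase of mesenchymal cells that was linked to asthma in human genetic studies, fell. Its log2 signal ranged from 6.65 to 6.85 (median 6.73) in air rats and from 6.58 to 6.70 (median 6.63) in silica rats, with overlap. The change was -0.11 ± 0.03 (SE), 1.08-fold lower (limma adjusted p = 0.047), and it missed the threshold in 9 of 12 fits that left out 1 array (limma adjusted p 0.063 to 0.098), those without air rat 1, 3, 5 or 6 or silica rat 1, 2, 3, 4 or 5. With the background from undetected probes it was -0.48, or 1.39-fold lower (limma adjusted p = 0.018). Raw signals were 102.4 to 137.3 in air rats and 83.0 to 108.3 in silica rats.

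The other tested ADAMs were not called. Adam10, which cleaves Notch receptors and E-cadherin, differed by -0.03 with a 95% interval from -0.06 to 0.01 (limma adjusted p = 0.31). Adam8, an ADAM of leukocytes, and Adam15, found in endothelium and epithelium, differed by -0.01 and -0.02, and Adam6 by 0.0012. With the background from undetected probes Adam10 differed by -0.13 (limma adjusted p = 0.25), Adam8 and Adam15 by -0.03 each and Adam6 by 0.01.

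The secreted ADAMTS enzymes gave no call among 6 tested. Adamts1, which cleaves versican and aggrecan, ranged from 7.63 to 8.17 in air rats and from 7.29 to 7.93 in silica rats, a difference of -0.24 ± 0.11 (SE; limma adjusted p = 0.17). Adamts7, which cleaves cartilage oligomeric matrix protein, differed by -0.05 ± 0.02 (SE; limma adjusted p = 0.17). Adamts5, Adamts8, Adamts9 and Adamts15, proteoglycan-cleaving enzymes, differed by 0.03 or less in size. With the background from undetected probes they differed by -0.05, -0.16, -0.02 and -0.07, so Adamts9 turned from 0.0075 to a negative value, and Adamts7 differed by -0.22 (limma adjusted p = 0.12). None of these was called. Among the 6 enzymes, Adamts1 was the most variable in silica rats, followed by Adamts9 with log2 signals of 6.70 to 7.06.

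Adamtsl4, an ADAMTS-like protein without catalytic domain that binds fibrillin microfibrils, fell in lung. Its log2 signal ranged from 6.74 to 6.82 (median 6.76) in air rats and from 6.65 to 6.73 (median 6.70) in silica rats, without overlap. The change was -0.07 ± 0.02 (SE), 1.05-fold lower (limma adjusted p = 0.019), and with the background from undetected probes it was -0.29, 1.22-fold lower (limma adjusted p = 0.013). Adamtsl5 differed by -0.02 (limma adjusted p = 0.44).

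The calls differed in how far they depended on the scaling of the arrays. With each array scaled to its median in place of quantile normalization, 537 of the 11285 probes were called in lung and 2 members, Reck and Mmp7. For Mmp7 this call is again no support, given how it passed the detection filter. Under that scaling Mmp14, Adam17, Timp2, Adam33 and Adamtsl4 differed by 0.37, 0.25, -0.24, -0.10 and -0.07, against 0.34, 0.20, -0.28, -0.11 and -0.07 with quantile normalization. The standard errors of all 5 were larger under median scaling, and limma adjusted p was 0.19, 0.21, 0.16, 0.14 and 0.22.

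**Figure D2:**
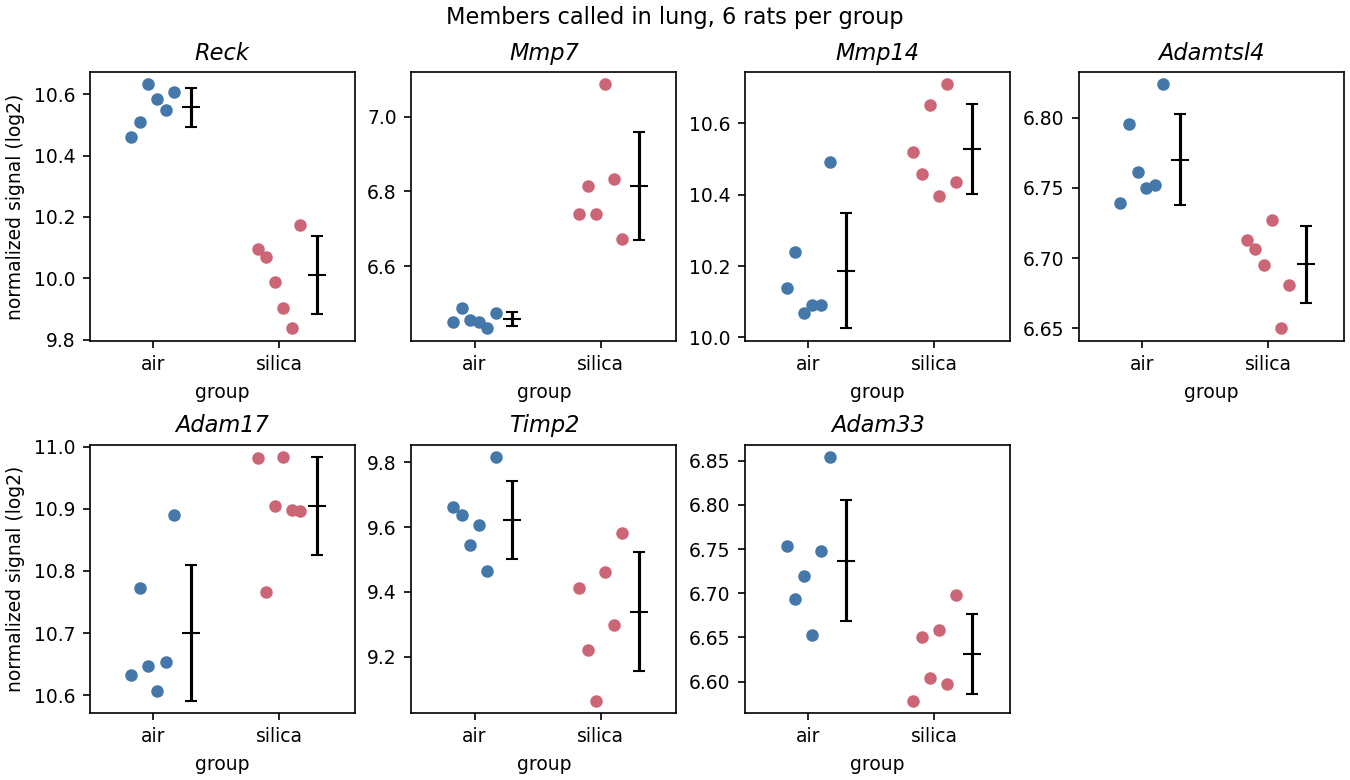
Normalised log2 signal in lung of the 7 members called, each point being 1 rat (blue air, red silica, 6 rats per group) with the group mean and SD beside the points; the axes do not start at 0. The groups of Reck, Mmp7 and Adamtsl4 do not overlap, and those of Mmp14, Adam17, Timp2 and Adam33 do.

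**Figure D3:**
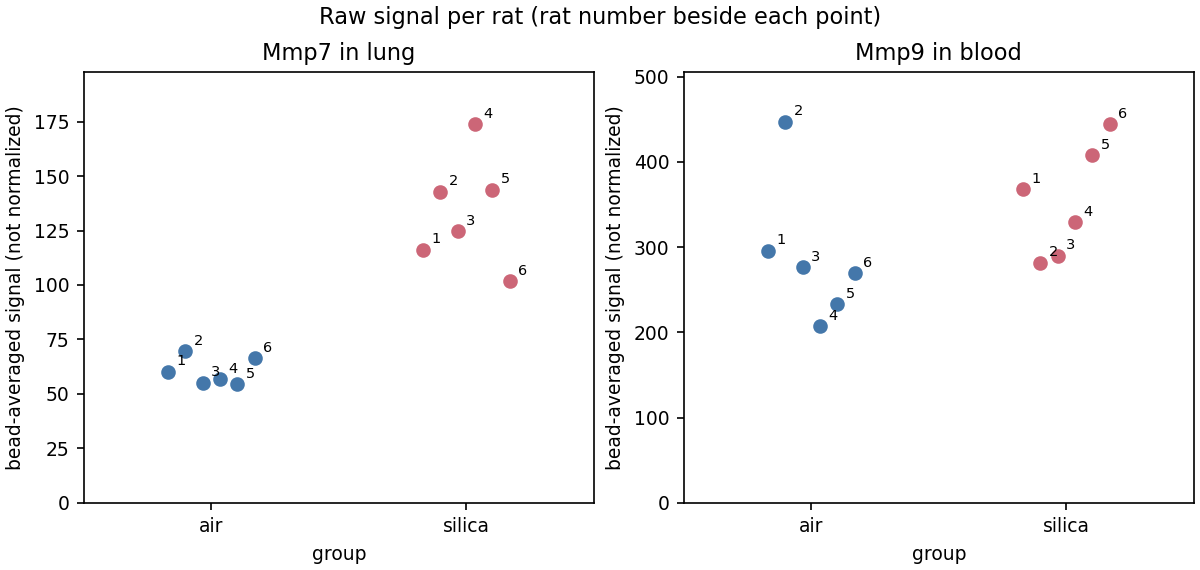
Raw bead-averaged signal per rat, before background correction and normalization, of Mmp7 in lung (left) and Mmp9 in blood (right), with the replicate number of each rat beside its point. Mmp7 lay between 54.5 and 69.7 in air rats and between 101.7 and 173.7 in silica rats, whereas Mmp9 in blood overlapped, with air rats 1 (295.9) and 2 (447.4) above the lowest silica rat (282.0).

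In blood no member passed the test. Of all 7864 probes tested 0 were called, which is 0% (limma; 680 probes or 8.65% had an unadjusted p under 0.05, among them 2 of the 11 members). The groups overlapped for all 11 members, and for all but 0.598% of the probes tested. Adam17 had the smallest p of the members. Its blood log2 signal ranged from 7.17 to 7.62 (median 7.46) in air rats and from 7.61 to 7.94 (median 7.69) in silica rats. The groups met only at air rat 2 (7.62), and the difference was 0.28 ± 0.07 (SE), with a 95% interval from 0.12 to 0.44 (limma adjusted p = 0.26).

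Mmp9 in blood ranged from 7.38 to 8.28 (median 7.45) in air rats and from 7.66 to 8.16 (median 7.85) in silica rats. Air rat 2, whose array stood apart, held the highest value, and the other 5 air rats (7.38 to 7.54) lay below all silica rats. The difference was 0.29 ± 0.15 (SE), with a 95% interval from -0.05 to 0.63 (limma adjusted p = 0.67). Leaving out 1 array at a time gave differences of 0.24 to 0.43 with limma adjusted p of 0.20 to 0.89. Timp1 differed by -0.05 ± 0.02 (SE; limma adjusted p = 0.44), Adam8 by -0.02 (0.79) and Timp3 by -0.02 (0.82). With the background from undetected probes these were -0.42, -0.23 and -0.19 (limma adjusted p = 0.22, 0.63 and 0.72). No member was called in blood without the 3 arrays that stood apart.

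**Figure D4:**
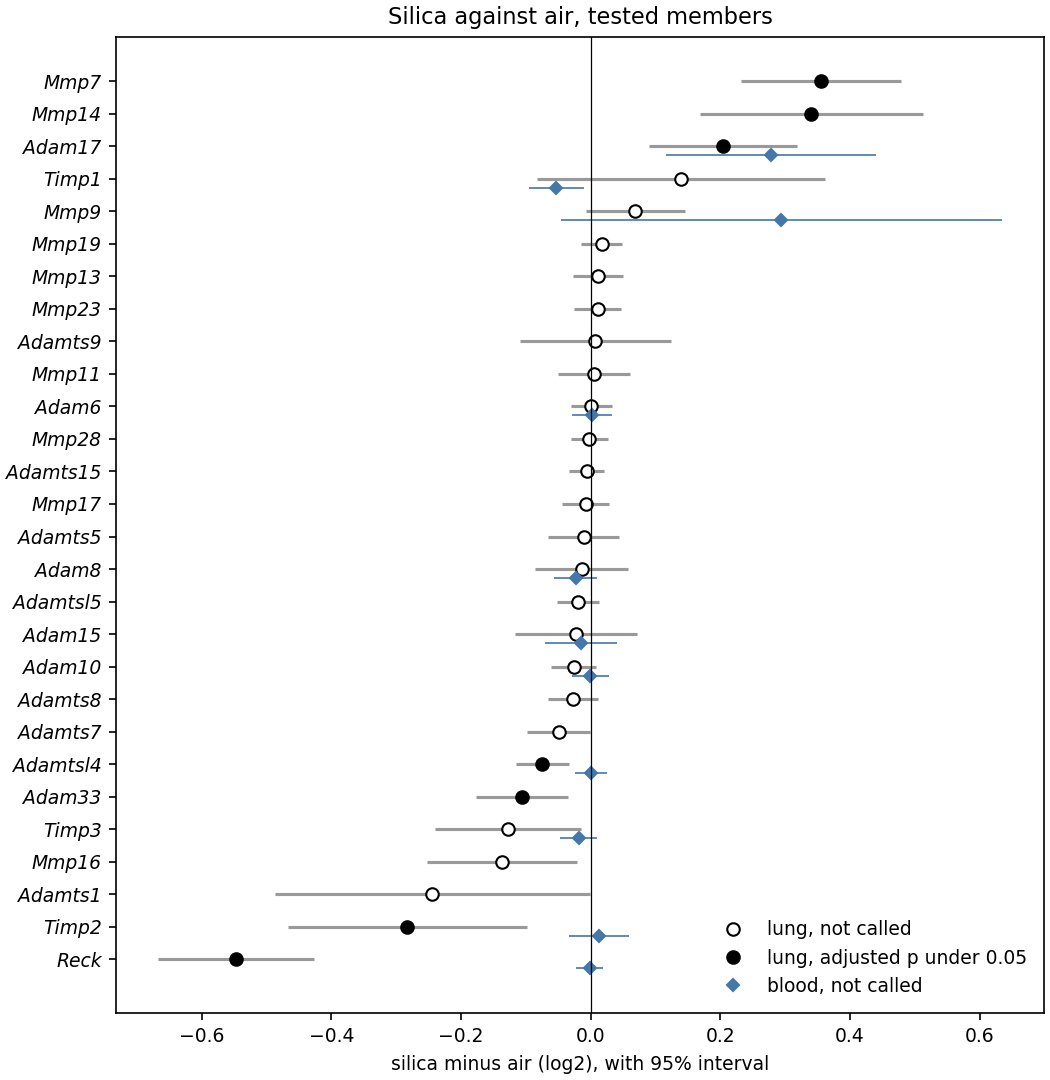
Silica minus air difference (log2, x axis) of each tested member, with 95% intervals as lines; circles are lung (filled where called, 28 members) and diamonds blood (11 members, none called). The lung differences run from -0.55 for Reck to 0.36 for Mmp7. The unadjusted interval of Adam17 lies above 0 in both tissues, but in blood Adam17 was not called (limma adjusted p = 0.26).

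A difference of the silica effect between lung and blood was tested within rats, as the lung signal minus the blood signal of each animal, over the 7594 probes tested in both tissues. Reck was the 1 member called of 11 (3.5% of all probes were called, 2.24% with a higher and 1.26% with a lower effect in lung). In air rats its lung signal exceeded its blood signal by 3.35 to 3.52 on the log2 scale, and in silica rats by 2.65 to 3.02, without overlap. The silica effect was -0.60 in lung and -0.0034 in blood, a difference of -0.60 ± 0.07 (SE; limma adjusted p = 0.00063). The blood side rests on weak signal: raw Reck signals in blood were 57.7 to 71.3, where the median probe of a blood array had a signal of 57.6 to 67.6.

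The 4 members next in order were not called. Timp2 gave a difference of effects of -0.33 ± 0.12 (SE; limma adjusted p = 0.19), and Timp1 one of 0.35 ± 0.15 (SE; limma adjusted p = 0.24), which ran from 0.18 to 0.70 under the alternatives (limma adjusted p 0.096 to 0.43). Mmp9 gave -0.24 ± 0.12 (SE; limma adjusted p = 0.34). Without air rat 2 the Mmp9 difference was -0.36 (limma adjusted p = 0.025), and without the 3 rats whose blood arrays stood apart it was -0.33 (limma adjusted p = 0.026), so 1 rat decided that call. Adam8 gave 0.08 (limma adjusted p = 0.61). For Adam17, the difference of effects was -0.05 with a 95% interval from -0.22 to 0.13, from 0.24 in lung and 0.28 in blood.

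**Figure D5:**
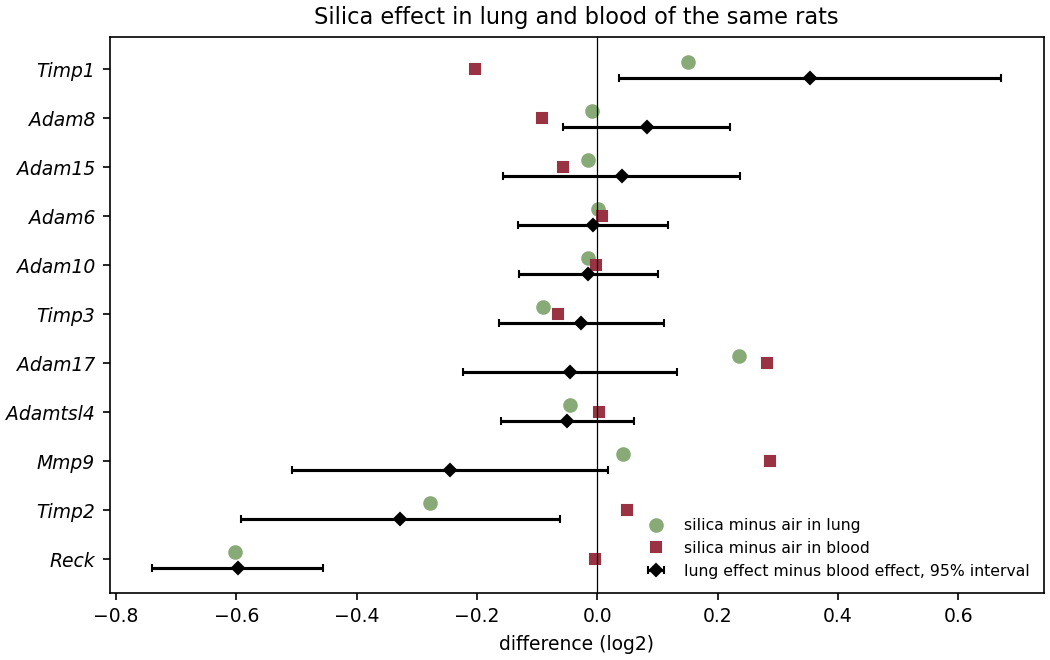
Silica minus air difference in lung (green circles) and blood (red squares) of the 11 members tested in both tissues, all on the log2 scale, with the lung effect minus the blood effect and its 95% interval in black, from 6 rats per group. Only for Reck did that difference pass the test; Adam17 lies at 0.24 in lung and 0.28 in blood, and the unadjusted intervals of Timp1 and Timp2 also exclude 0.

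In air rats, 19 of 28 members differed between lung and blood (67.9%, where 74.8% of 11555 probes were called, 39% higher in lung and 35.8% lower, and 76.7% had an unadjusted p under 0.05). Of these, 16 were higher in lung. The 28 were the members tested in either tissue, 17 of them in lung only and 0 in blood only. The detection filter thus favoured members higher in lung, and the split is no support for a lung bias of the members. Reck was 10.8-fold higher in lung (log2 difference 3.43 ± 0.03, SE), Timp1 5.90-fold, Timp2 4.44-fold and Adam17 2.49-fold higher. Mmp14 and Adamts1 were detected on no blood array and were at least 8.36-fold and at least 1.87-fold higher in lung. Timp3 was 1.44-fold higher in lung. Mmp9 was 4.92-fold higher in blood (log2 difference -2.30 ± 0.10, SE). Adam10 (-0.23) and Adam6 (-0.10) were also called higher in blood, but with median scaling Adam10 was called higher in lung (0.08) and Adam6 was not called. Tissue cannot be told apart from RNA handling here, since blood RNA was globin-depleted and the lung samples carry the blood extraction text, which leaves the isolation of lung RNA unstated in the sources used here.

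The size of these tissue differences depended on the scaling. With median scaling, 21 members were called, 20 (95.2%) of them higher in lung, against 84.2% with quantile normalization, and the median difference over all probes moved from 0.01 to 0.27. Mmp9 was then -0.84, Adam17 3.23 and Reck 4.02, so all 3 kept their direction. With the background from undetected probes, 22 members were called, 18 of them higher in lung, with Reck at 4.82, Adam17 at 1.32, Mmp9 at -3.17 and Adam10 at -0.81. All these splits by direction are limited by the detection filter as above.

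Genes that act with the proteinases were followed in fixed lists in lung. The counts in these lists stand against 7.59% of all tested lung probes called higher and 8.53% called lower. Of 22 tested activators and partners, 5 rose and 1 fell. Lcn2, a lipocalin that binds MMP9, rose 3.71-fold (log2 8.12 ± 0.51 to 10.01 ± 0.44, SD; limma adjusted p = 0.00099). The cathepsins Ctsk and Ctsb, lysosomal proteinases, rose 2.12-fold and 1.37-fold, and the proprotein convertase Pcsk6 was 1.26-fold lower. The list's median difference was -0.01.

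The list of other inhibitors of matrix proteolysis also holds matrix proteins such as Sparc and Spock2, so its counts are not of inhibitors alone. Among its 10 genes tested in lung, 4 rose and 3 fell, with a median difference of -0.04. Serpine2, an inhibitor of thrombin and plasminogen activators, rose 1.37-fold. Wfdc1, a small secreted protein with a whey acidic protein domain, fell 1.32-fold, and the matrix proteins Sparc and Spock2 fell 1.29-fold and 1.25-fold.

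Of 30 tested matrix substrates none rose and 14 fell, with a median difference of -0.23. Vtn (vitronectin) fell 1.43-fold (log2 9.85 ± 0.10 to 9.34 ± 0.18, SD; limma adjusted p = 0.0018). Col6a3 and Col6a1, chains of collagen VI, fell 1.42-fold and 1.41-fold, and Postn (periostin) fell 1.36-fold.

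Of 33 tested membrane proteins that ADAMs are known to release, 2 rose and 7 fell, with a median difference of -0.02. The decoy interleukin-1 receptor Il1r2 rose 1.95-fold and the chemokine Cx3cl1 (fractalkine), a substrate of ADAM10 and ADAM17, rose 1.76-fold. Notch4 and Notch1 fell 1.39-fold and 1.33-fold. In blood no gene of these 4 lists was called; Il1r2 differed there by 0.57 ± 0.15 (SE; limma adjusted p = 0.26).

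Markers of several cell types also differed between silica and air rats in lung. Of all tested lung probes, 7.59% were called higher and 8.53% lower, the shares to set beside the marker counts. Of 10 tested endothelial markers 8 fell and none rose, and their summed normalised signal was 48690 to 53230 in air rats and 37520 to 46360 in silica rats. Of 10 fibroblast markers 5 fell, with sums of 26460 to 30030 and 22260 to 27370. Of 10 alveolar type 1 markers 6 fell (30720 to 33360 and 26560 to 28410), and of 4 mesothelial markers 2 fell. Vwf, Ednrb, Tek and Tie1 of endothelium fell 1.43-fold, 1.41-fold, 1.38-fold and 1.27-fold, and Inmt and Pdgfra of fibroblasts 1.49-fold and 1.31-fold. Reck, Timp2, Adam33 and Adamtsl4 were also lower in silica rats, but whether markers and members varied together between rats was not tested.

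Markers of other cell types rose in silica rats, as did Mmp7, Mmp14 and Adam17, and here too no link between them was tested. Of 8 alveolar macrophage markers 5 rose, with sums of 12820 to 17870 in air rats and 20990 to 29470 in silica rats, and Marco was detected on no array. Fabp4 and Chi3l1 rose 2.55-fold and 2.54-fold. Of 10 alveolar type 2 markers 5 rose (52650 to 58650 and 57540 to 69320), led by Muc1 at 1.65-fold. Of 9 monocyte and dendritic cell markers 3 rose, of 5 neutrophil markers 1 (S100a8, 2.20-fold; Ltf and S100a9 were detected on no array), of 9 B and plasma cell markers 2 and of 15 T and NK cell markers 3. Of 10 ciliated and airway secretory markers 1 rose and 1 fell, of 6 smooth muscle markers 1 fell, of 5 platelet markers 2 fell and of 6 erythroid markers 2 fell.

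The heart and skeletal muscle markers gave no call among 7 in lung, but their sum ranged from 634.0 to 6187 in air rats and from 643.3 to 4825 in silica rats, so some lungs of both groups held more such transcripts than others. Thy1 of fibroblasts, Lmod1 of smooth muscle, Cd5 of T cells, Irf4 and Pax5 of B cells, Treml1 of platelets and Myh7 of heart were detected on no lung array. The part of all these cell types in the members' changes was not tested.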

How the data were processed

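RNA of lung and blood of 12 rats was measured on 24 BeadChip arrays. The authors deposited, per the file headers, a bead-averaged signal intensity on a linear scale, not normalized, with a detection p-value and a bead number for each probe and array. They also deposited normalized values: for blood on a log2 scale, and for lung a score close to log2 at high signal, whose exact transform is unknown (slopes against log2 raw signal of 1.05 above a signal of 2000 and 0.424 below 100, medians of 7.68 to 7.7 in lung and 6.87 to 6.9 in blood). Per the submitters' processing notes BeadStudio, lumi and limma were used, without versions.

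Raw signals were analysed with limma 3.58.1 (R 4.3.3). The 12 arrays of a tissue went through neqc: background correction by a model inferred from the deposited detection p-values, quantile normalization and log2, with an offset of 16. Probes with detection p under 0.05 on at least 6 of 12 arrays were tested with lmFit and eBayes, two-sided, with Benjamini-Hochberg adjustment over all tested probes and a threshold of 0.05. ± is the SE of a difference, or the SD of a group mean over 6 rats. The tissue comparisons used each rat's lung minus blood value after neqc of all 24 arrays, paired by the rat number in the source names. Where a group had no array with detection, its probe gives a bound ("at least"), set against, per array, the higher of the probe's own signal and the lowest signal of any detected probe. Group fold changes are silica over air. Member signals came from 22 to 81 beads per lung array and 19 to 85 per blood array (median 42 in each), and the 6 rats per group limit the precision. Between probes, levels were not compared.

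Symbols were matched to RefSeq names: 58 members by symbol and 1 by synonym, and of all probes 16321 of 21792. Named were all members called, with the 5 of smallest p where fewer than 5 were called, members detected on at least 6 arrays of a tissue, with their levels, and per list up to 4 called genes in order of their change. The members, lists and tests were chosen with earlier results of these data known. Lists share genes (collagens stand among matrix substrates and fibroblast markers). The script was tested on simulated data. All per-sample columns were mapped to samples.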

Additional observations from a re-analysis of the deposited data

Results flagged for a closer look

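Reck differed between the tissues: its silica effect in lung minus that in blood was -0.598 on the log2 scale, by a test of the difference itself.

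In 5 of 78 groups of 6 rats (4 of 56 in lung, 1 of 22 in blood) 1 rat lay far from the other 5, by a gap larger than a set share of the group's range; chance gives about 1 in 20. In blood, Mmp9 of air rat 2 was 8.28 and the others 7.38 to 7.54, so the gap took 0.822 of the range. In lung, Adamts5 of silica rat 4 was 6.53 against 6.60 to 6.62 (0.77 of the range), and Timp3 of silica rat 1 was 7.52 against 7.33 to 7.38 (0.713). Mmp11 of silica rat 3 was 6.86 against 6.76 to 6.79 (0.659), and Mmp19 of air rat 3 was 6.50 against 6.52 to 6.54 (0.635).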

How the results depend on the processing

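In lung, 7 members were called with the main settings, 2 with median scaling (537 of all probes against 1820) and 3 with the replicate number as a replicate block (1130 of all probes), and 5 to 7 under the other 7 alternatives and when 1 array was left out. The causes were not tested. Reck was called under every alternative run; so was Mmp7, but its repeated calls are no support where the detection filter let it through by its silica arrays alone (without any filter its limma adjusted p was 0.0041). Under the replicate block Mmp14, Adamtsl4, Adam17 and Adam33 had limma adjusted p of 0.064, 0.074, 0.090 and 0.068. Air and silica rats of a number are different animals. Same-numbered arrays had correlations from -0.29 to 0.18 (lung) and from -0.46 to 0.62 (blood), with their own number best for 0 of 6 and 2 of 6. In blood these were numbers 1 (0.31) and 6 (0.62). The labels give the number only as a replicate, and whether it marks a shared batch was not tested. Adam33 missed the threshold with an offset of 50 (adjusted p 0.0501), and Timp2 and Adam33 without a filter on dim probes (0.075 and 0.077). In blood 0 members were called under every alternative, with 0 to 17 of all probes. The effect in lung minus blood gave 1 called member, 2 without the 3 arrays that stood apart, and 1 to 2 with 1 rat left out (2 without air rat 2, through Mmp9). Lung against blood gave 19 called members, 21 to 22 under the alternatives (21 without the replicate block) and 17 to 19 with 1 rat left out. In the silica comparisons, none of the members recomputed under all these alternatives changed direction. The other lung and blood members were recomputed with the background from undetected probes alone. There Adamts9 in lung turned from 0.0075 to -0.019 and Adam10 in blood from -0.00026 to 0.00054. In lung against blood, Adam10 turned from -0.23 to 0.08 with median scaling. Adam8 turned from -0.059, not called, to 0.24, called higher in lung. Mmp19 and Mmp28, not called in either setting, turned from -0.028 to 0.016 and from -0.0018 to 0.0068. A chip block was not run because the headers name no chips. Probes near background, Mmp7 in air rats among them, are limited by signal over background.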
